A study of Homo sapiens with 4 samples.

Results

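The mitochondrial ribosomal protein genes were taken as the protein-coding genes whose GENCODE symbol starts with MRPL or MRPS followed by digits. That rule found 78 of the 58219 genes in the deposited table, 49 of them named MRPL for the large ribosomal subunit and 29 named MRPS for the small subunit. The choice went by name, and no measured value entered it. RNA was sequenced in 4 libraries of GBM8401, a human malignant glioma line grown in culture: 2 libraries of the parental cells, which were not exposed to the drug, and 2 of a temozolomide-resistant line derived from them. Temozolomide (TMZ) is an alkylating drug given against glioblastoma, and the resistant line was raised in medium holding 200 µM TMZ for 140 days. The labels describe 1 such line, so both resistant libraries come from it, and the tests measure the spread between its cultures and not between separately derived lines. Whether TMZ was still in the medium when RNA was taken is not given in the sources used here.

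Mitochondria carry their own ribosome, the mitoribosome, which translates only the few proteins encoded in mitochondrial DNA, all of them parts of the respiratory chain and ATP synthase. Its RNA comes from the mitochondrial genome, while every one of its proteins is encoded in the nucleus, made in the cytosol and imported. Many of these proteins descend from those of the bacterial ribosome, and the others were added in mitochondria and have no bacterial counterpart. The small subunit decodes the message, and the large subunit joins amino acids and is anchored to the inner membrane, into which most of its products are inserted.

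The deposited values are named counts but are not whole, and their scaling is not given in the sources used here. Of values under 50 times the most common value above 0 in a library, 95.1% to 95.7% were whole multiples of it (within 0.05), and the others were not. They were therefore read as fragment numbers per gene, some of them fractional, times a factor for each library, and are called scaled fragments here. That reading is inferred from the values. Library totals ran from 23163310 to 25832511. Over tested genes, Pearson's r of log2 values was 0.989 between parental replicates, 0.991 between resistant replicates and 0.965 to 0.971 across groups. Of 16132 genes tested with limma on log2(value + 1), 37.1% had an adjusted p under 0.05. Lower calls in the resistant line made up 20.9% of the genes tested and higher calls 16.2%, and the median log2 fold change over all of them was -0.02. Higher calls were thus 43.7% of all calls, and 56.9% when values were divided by library totals instead. Among 10 astrocyte and glioma markers NES, VIM and CD44 were lower in the resistant line, SLC1A3 was higher, and GFAP, S100B, AQP4 and SOX2 did not exceed 10.5 scaled fragments in any library. The summed markers of this list ranged from 117535 to 124381 in the parental and from 81133 to 89723 in the resistant libraries. Those of epithelial cells (6 genes, KRT8 and KRT18 called higher) ranged from 18708 to 20555 and from 35277 to 36943, those of neurons (5 genes, RBFOX3 called higher) from 152 to 168 and from 281 to 300, and those of blood cells (6 genes, CD68 called higher) from 860 to 1070 and from 1389 to 1412. Endothelial markers (5 genes, CDH5 and TEK called lower) ranged from 1207 to 1363 and from 877 to 973, and oligodendrocyte markers (4 genes, none called) from 144 to 152 and from 105 to 132. Fibroblast markers (8 genes, THY1 called lower) ranged from 13067 to 16183 and from 12690 to 14981 and overlapped. The part of these markers in the results was not tested.

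The mitoribosomal genes were mostly lower in the resistant line, by small amounts. Of the 76 tested, 25 fell, against 20.9% of all genes tested, 4 rose, against 16.2%, and 47 did not pass the test. Among coding genes tested, 23.8% fell and 15.9% rose. The median log2 fold change of the members was -0.18, and 62 of the 76 values were negative. For 48 members both resistant libraries lay below both parental ones, an order seen in 36.4% of all genes tested. For 9 members both lay above, an order seen in 32.2%. Among coding genes these orders were seen in 39.3% and 30.8%. The changes were modest: the SD of the 76 log2 fold changes was 0.27. Over the same genes the difference between the 2 parental libraries had an SD of 0.17, and that between the resistant ones 0.14. A fold change compares means of 2 libraries and carries less replicate noise than a difference of single libraries. These SDs are therefore not on the same scale. The count of falls rested in part on single libraries and on the variance model. It was smaller without either resistant library, and so was the count over all genes tested. The median of the members was then -0.16 without resistant replicate 1 and -0.22 without resistant replicate 2. Without limma's variance trend and robust step 10 of 76 members fell, with 18 of the 29 calls lost. That share was near the one over all genes, 1915 of 16132. With the replicate number as a block 38 members fell, beside 4721 of 16132 genes. In bulk RNA a smaller share of cells expressing a gene and less of its RNA per cell cannot be told apart.

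Both subunits held more falls than rises, beside 20.9% lower and 16.2% higher calls over all genes tested. Of 49 MRPL genes 16 fell, 2 rose and 31 did not pass the test, with a median log2 fold change of -0.18. Of 27 MRPS genes tested 9 fell, 2 rose and 16 did not pass, with a median of -0.19. Without resistant replicate 1 the medians were -0.16 (MRPL) and -0.17 (MRPS), and without resistant replicate 2 they were -0.22 and -0.16. Leaving out parental replicate 1 gave -0.23 and -0.17. In each of these fits fewer genes of both subunits fell than with all libraries, and fewer of all genes tested. The summed MRPL values were 2054 and 2020 CPM (the value relative to the library total) in parental cells, against 1870 and 1874 in resistant cells, so the groups did not overlap. The summed MRPS values were 1524 and 1442 CPM in parental cells and 1448 and 1418 in resistant cells, which overlapped. That overlap depended on the scaling. In scaled fragments, as used for the fold changes, the MRPS sums were 37775.5 and 37243.6 against 33529.3 and 34359.8. On that scale neither subunit's sums overlapped between groups. The ratio of the MRPL sum to the MRPS sum was 1.35 and 1.40 against 1.29 and 1.32, groups that did not overlap. No test of a difference between the subunits was made. With 2 libraries a group, an exact test of these sums cannot reach 0.05, and none was run. Together the members took 0.358% and 0.346% of the parental totals and 0.332% and 0.329% of the resistant totals.

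**Figure D1:**
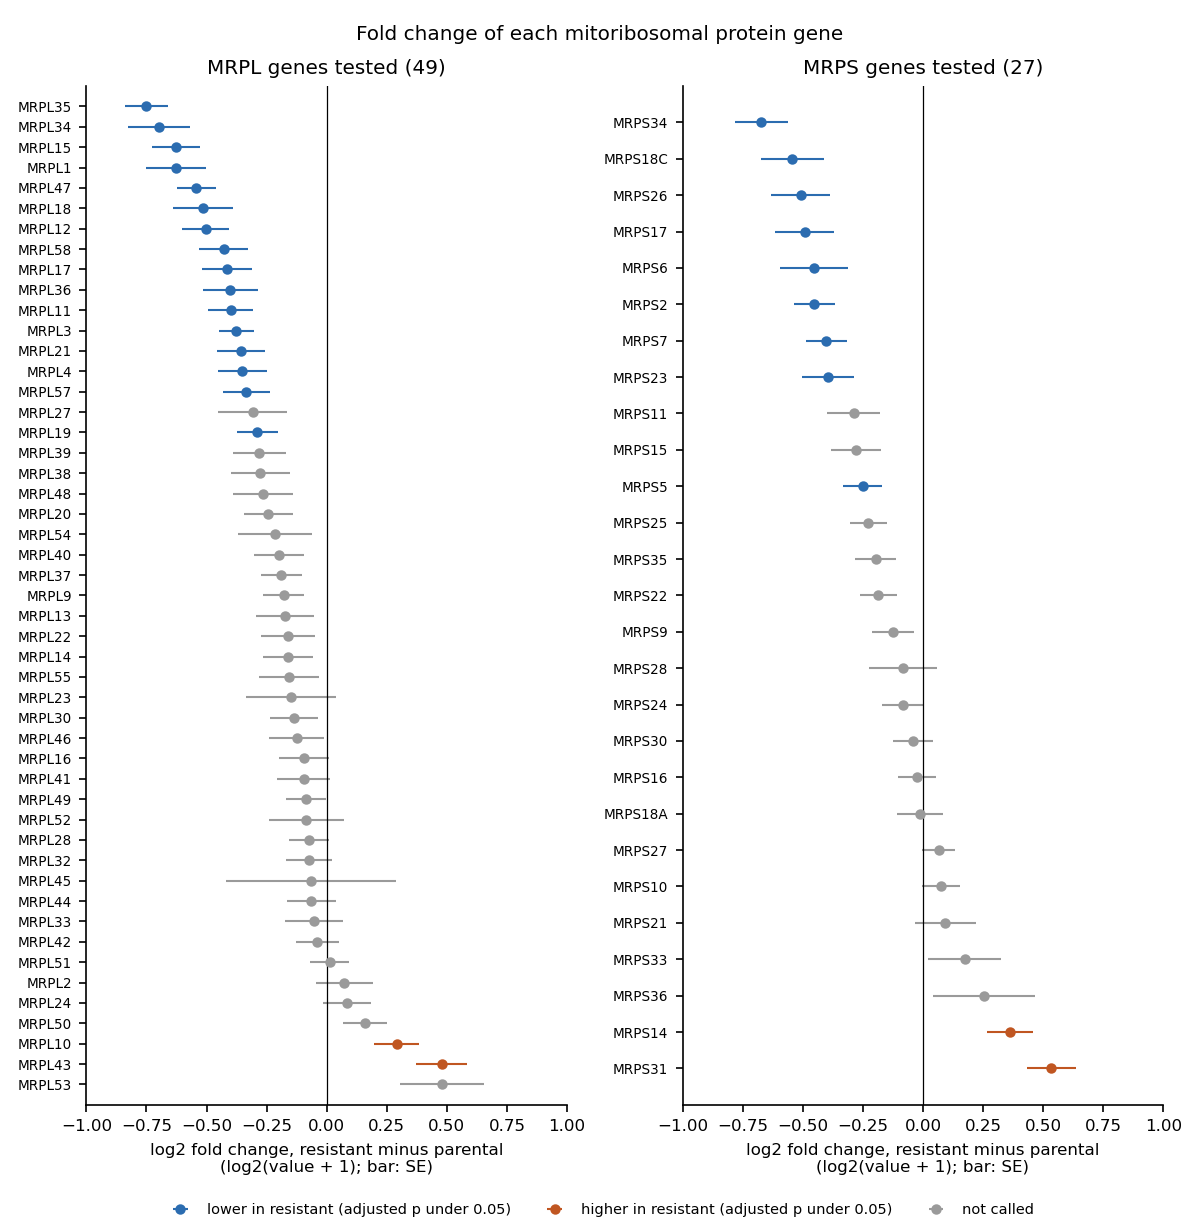
Log2 fold change (resistant minus parental, on the log2(value + 1) scale) of the 49 MRPL and 27 MRPS genes tested, ordered by size, with bars for the standard error (SE). Points left of 0 are lower in the resistant line, blue points (25) fell, orange points (4) rose and grey points (47) did not pass the test at an adjusted p of 0.05.

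**Figure D2:**
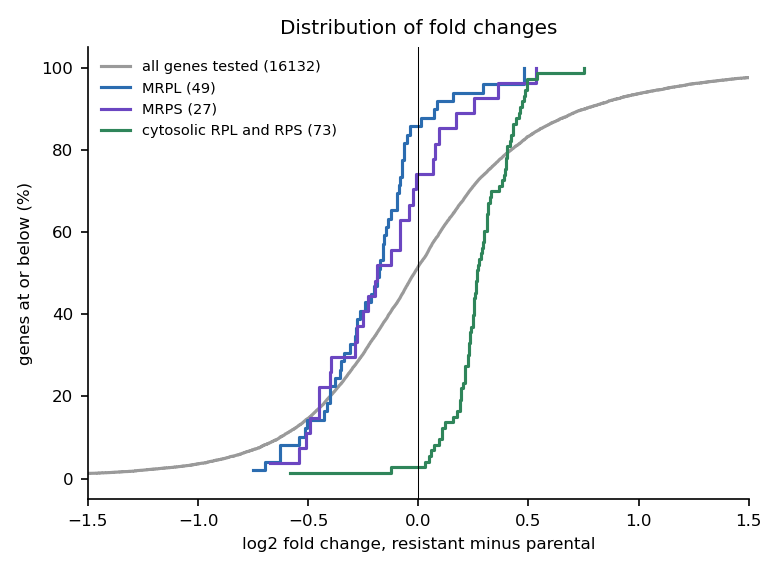
Cumulative share of genes (vertical axis, percent) at or below each log2 fold change (horizontal axis, resistant minus parental) for all 16132 genes tested, 49 MRPL, 27 MRPS and 73 cytosolic ribosomal protein genes. The MRPL and MRPS curves lie close together, with medians of -0.18 and -0.19, while the cytosolic curve lies to the right with a median of 0.27.

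The ribosome of the cytosol, which translates nuclear-encoded messages, is shown beside them. Of its 78 protein genes 73 were tested, 47 rose in limma, none fell (1 at an unadjusted p under 0.05) and the median log2 fold change was 0.27. Over all genes tested 16.2% rose. The difference between both families was not tested.

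Promoters are shown for a few members because sequence near the start is a feature that the naming rule did not use. RefSeq (GRCh38.p14) promoters, from 250 bases before to 50 bases after the start, were found for 69 of the 78 members. Motifs were searched on both strands of these 300 bases. The letters CCGGAAG, the core bound by ETS-family factors such as GABPA (also called NRF-2, a known regulator of nuclear genes for mitochondria), were present in 29 of 69 member promoters (42.0%), against 10.7% of all 27305 promoters and 14.2% of the 15843 promoters of coding genes. AAGATGGCG, a core of sites for the factor YY1, was present in 13 (18.8%), against 1.85% of all and 2.74% of coding promoters. The palindrome bound by nuclear respiratory factor 1 (NRF1), which reads GCGCA followed by its reverse complement, was present in MRPL17 alone (1 of 69, or 1.45%), against 1.36% of all and 1.75% of coding promoters. The E-box CACGTG, bound by MYC among others, was present in 6 (8.70%), against 7.43% of all and 8.88% of coding promoters. CCGGAAG ends with the letters AAG with which AAGATGGCG starts, so matches of both can share bases. The stretches below lie just before the start, outside annotated exons, and are printed along each gene's own strand with the motif in capitals. They come from members that fell (MRPS34 and MRPL3), rose (MRPS31) or did not pass the test (MRPS18A).
MRPS34, chr16:1773156-1773206, minus strand, with 2 of its 3 ETS matches: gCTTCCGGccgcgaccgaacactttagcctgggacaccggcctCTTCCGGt
MRPL3, chr3:131502984-131503061, minus strand, ETS: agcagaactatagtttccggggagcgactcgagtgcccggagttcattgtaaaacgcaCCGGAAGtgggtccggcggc
MRPS31, chr13:40771191-40771280, minus strand, ETS: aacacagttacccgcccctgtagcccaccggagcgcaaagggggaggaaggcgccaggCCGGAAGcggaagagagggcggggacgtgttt
MRPS18A, chr6:43687792-43687881, minus strand, ETS: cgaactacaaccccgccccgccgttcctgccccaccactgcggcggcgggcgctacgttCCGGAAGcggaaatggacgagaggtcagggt
In MRPS34 the matches read CTTCCGG because they lie on the opposite strand.

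The ETS letters occurred in members of every outcome. They were present in 7 of 22 promoters of members that fell (31.8%), in 2 of 3 of members that rose and in 19 of 42 of members that did not pass the test (45.2%). By subunit they were in 17 of 42 MRPL and 12 of 27 MRPS promoters. The YY1 letters were in 1 of 22 promoters of members that fell (4.55%), in none of 3 that rose and in 11 of 42 that did not pass (26.2%). No test of these shares was made, and a match of letters is a description of the sequence and not of binding.

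Among the large-subunit proteins, those with a bacterial counterpart held most of the falls. Of these 30 genes 14 fell and 1 rose, beside 20.9% lower and 16.2% higher over all genes tested. The 30 genes had a median log2 fold change of -0.27. MRPL35 (chr2:86199355-86213794, GENCODE 29 on GRCh38) encodes a small protein of the large subunit, and its values were 1766 and 1843 scaled fragments in the parental and 1017 and 1130 in the resistant libraries. Every resistant value lay well below both parental ones. MRPL35 fell by 0.75 ± 0.09 on the log2 scale (SE, n = 2 against 2; limma, adjusted p 0.000556), or 1.68-fold lower, the largest fall of any member. MRPL34 (chr19:17292609-17306843) had values of 437 and 390 in the parental and 245 and 263 in the resistant libraries. The groups did not overlap, and MRPL34 fell by 0.70 ± 0.13 (limma, adjusted p 0.00389). Its exons share 13.2% of their length with ABHD8 on the opposite strand, which did not pass the test (0.11).

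MRPL15, a core protein of the large subunit, stood at 1266 and 1162 scaled fragments in the parental and at 744 and 828 in the resistant libraries. MRPL1, the protein of the flexible L1 stalk where spent transfer RNA leaves, stood at 505 and 530 against 362 and 309. Both sets of values were apart, and both genes fell by 0.63 on the log2 scale, MRPL15 with an SE of 0.10 (limma, adjusted p 0.00193) and MRPL1 with an SE of 0.13 (limma, adjusted p 0.00547). MRPL18, a protein that in bacteria binds the small ribosomal RNA of the central protuberance, stood at 1163 and 935 against 771 and 691. The parental libraries differed from each other more than in the genes above, and MRPL18 fell by 0.51 ± 0.12 (limma, adjusted p 0.0132). Without resistant replicate 2, and without the trend and robust step, its adjusted p was above the threshold. MRPL3, which lies near the peptidyl transferase centre, had the highest level per kilobase of transcript of all members (2480 scaled fragments per kb). Its values were 4877 and 4681 in the parental and 3682 and 3681 in the resistant libraries. MRPL3 fell by 0.38 ± 0.07 (limma, adjusted p 0.00448), a call lost without the trend and robust step.

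The other members of this group that fell were MRPL4, MRPL11, MRPL12, MRPL17, MRPL19, MRPL21, MRPL36 and MRPL47, by 0.29 to 0.54 on the log2 scale. Among the 15 that did not pass the test, MRPL27 had the most negative value (-0.31) and MRPL24 the most positive (0.08). Without resistant replicate 1 the falls in the group came to 9 of 30, without resistant replicate 2 also to 9, and without parental replicate 1 to 10. Without the trend and robust step 5 genes of the group fell, and the calls of MRPL4, MRPL17, MRPL19, MRPL21 and MRPL36 were among those lost. The calls of MRPL19, MRPL21 and MRPL36 were lost without parental replicate 1 or either resistant one and when values were divided by library totals, that of MRPL17 without parental or resistant replicate 1, and that of MRPL4 without parental replicate 2 or resistant replicate 1.

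The stalk and the tunnel exit of the large subunit did not move as blocks. The stalk recruits translation factors. Its base is formed by MRPL11, MRPL10 binds that base, MRPL12 is carried by MRPL10 in several copies, and MRPL53 lies beside them. MRPL12 (chr17:81703357-81707526), whose product has also been described to bind mitochondrial RNA polymerase, stood at 1394 and 1619 scaled fragments in the parental and 1034 and 1085 in the resistant libraries. MRPL11 stood at 1315 and 1177 against 968 and 917. Neither gene's groups overlapped, and MRPL12 fell by 0.50 ± 0.10 (limma, adjusted p 0.00512) and MRPL11 by 0.40 ± 0.10 (limma, adjusted p 0.0122). MRPL10 went the other way, with 1217 and 1363 in the parental and 1638 and 1518 in the resistant libraries, and rose by 0.29 ± 0.09 (limma, adjusted p 0.0400). MRPL53 had 113 and 121 against 152 and 177, a log2 fold change of 0.48 ± 0.17 that did not pass the test (limma, adjusted p 0.0606). The MRPL10 call was lost without parental replicate 1 and without either resistant replicate, and the MRPL11 call without resistant replicate 2. Without the trend and robust step the calls of MRPL10, MRPL11 and MRPL12 were all lost.

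MRPL12 shares 68.2% of its exon length with AC139530.2 on the same strand, which had 266 and 229 scaled fragments in the parental and 55.3 and 97.0 in the resistant libraries (log2 fold change -1.74). MRPL53 shares 45.2% with CCDC142, which did not pass the test (-0.30). How the deposited counting divided such fragments is not given in the sources used here, so the values of MRPL12 and MRPL53 are uncertain.

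Of 6 genes for proteins around the tunnel exit, through which the new chain leaves towards the membrane, only MRPL47 passed the test. It stood at 1600 and 1628 scaled fragments in the parental and at 1105 and 1110 in the resistant libraries, a tight split, and it fell by 0.54 ± 0.08 (limma, adjusted p 0.00149). Its exons share 9.05% of their length with ACTL6A on the opposite strand, which also fell (-0.46). MRPL22 (-0.16), MRPL23 (-0.15), MRPL24 (0.08) and MRPL44 (-0.06) did not pass. MRPL45, a receptor-like protein that ties the ribosome to the inner membrane, was among the 3 members with the lowest levels per kb (19.5), and its values of 26 and 42.1 against 39.2 and 25.5 overlapped widely (-0.07 ± 0.35; limma, adjusted p 0.905).

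Of the 19 genes for large-subunit proteins without a bacterial counterpart 2 fell, MRPL57 and MRPL58, and MRPL43 rose, with a median log2 fold change of -0.10. Dividing values by library totals moved this median to 0.00, that of the 30 genes with a counterpart to -0.17 and that of all genes tested to 0.08. MRPL58, a release-type peptidyl-tRNA hydrolase built into the ribosome, stood at 670 and 698 scaled fragments in the parental and at 513 and 503 in the resistant libraries. The groups were apart, and MRPL58 fell by 0.43 ± 0.10 (limma, adjusted p 0.0114). MRPL57 fell by 0.34 ± 0.10 (limma, adjusted p 0.0279). Both calls were lost without either resistant library. That of MRPL57 was also lost without either parental one, by library totals and without the trend and robust step. MRPL37, the third of all members by level per kb (2108), stood at 3143 and 3523 against 2846 and 2991 and did not pass (-0.19; limma, adjusted p 0.115). MRPL51 was close to level, with 1495 and 1537 against 1534 and 1524 (0.01 ± 0.08). In both subunits together, 20 of 46 tested members with a bacterial counterpart fell (median -0.25). Of those without one 5 of 29 fell (median -0.13), or 17.2%, near the 20.9% lower over all genes tested. These counts were 10 and 1 without resistant replicate 1, 13 and 1 without resistant replicate 2, 7 and 3 without the trend and robust step, and 26 and 12 with the replicate block. The difference between both sets was not tested.

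In the small subunit the falls came from both origins. Over all genes tested 20.9% fell and 16.2% rose, and over coding genes tested 23.8% fell. Fewer of all genes tested fell in each of the fits without 1 library given below. Of 16 tested genes with a bacterial counterpart 6 fell and 1 rose (median -0.19). Of 10 without one 3 fell, near those shares of falls, and 1 rose (median -0.19). Without resistant replicate 1 the falls were 1 and 1, without resistant replicate 2 they were 4 and 1, and without parental replicate 1 they were 3 and 2. MRPS34 (chr16:1771890-1773155), a mitochondrial addition needed for a stable small subunit, stood at 1476 and 1767 scaled fragments in the parental and at 1065 and 963 in the resistant libraries. The parental libraries differed by more than the resistant ones but did not reach down to them. MRPS34 fell by 0.67 ± 0.11 (limma, adjusted p 0.00223), or 1.59-fold lower, the largest fall of the small subunit. MRPS26 and MRPS23, also mitochondrial additions, fell by 0.51 and 0.40, calls that were lost without either resistant library. The MRPS23 call was also lost without parental replicate 1, without the trend and robust step and with the length trend removed.

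Among the conserved small-subunit genes, MRPS17, MRPS6, MRPS2, MRPS7, MRPS18C and MRPS5 fell. MRPS2, which in bacteria joins the subunit late in its assembly, was among the highest members and stood at 3987 and 3593 scaled fragments in the parental and at 2666 and 2872 in the resistant libraries (-0.45 ± 0.09; limma, adjusted p 0.00424). MRPS7, a protein of the head of the subunit, stood at 1352 and 1318 against 992 and 1029 (-0.40 ± 0.09; limma, adjusted p 0.00714). Both genes' groups were well apart. The MRPS7 call was lost without resistant replicate 1, and the MRPS2 call without the trend and robust step. MRPS17 and MRPS6 fell by 0.49 and 0.45, calls lost without parental or resistant replicate 1 and, for MRPS17, resistant replicate 2. Both calls were also lost without the trend and robust step. MRPS5, near the messenger RNA entry channel, stood at 2211 and 2131 against 1878 and 1772 and fell by 0.25 ± 0.08 (limma, adjusted p 0.0388). The MRPS5 call was lost in 9 of 13 alternative fits, more than for any other member, including those that left out any 1 library.

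MRPS18A, MRPS18B and MRPS18C are human relatives of a single bacterial protein, and current structures place MRPS18A in the large subunit. MRPS18C stood at 364 and 382 scaled fragments in the parental and at 241 and 271 in the resistant libraries and fell by 0.54 ± 0.13 (limma, adjusted p 0.0124). Its adjusted p was 0.102 without resistant replicate 1. MRPS18A stood at 733 and 759 against 764 and 717, overlapping groups with a log2 fold change of -0.01 ± 0.10 (limma, adjusted p 0.938). MRPS18B was listed at 0 in every library. MRPS18C shares 40.2% of its exon length with ABRAXAS1 on the opposite strand, which rose (0.39).

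MRPS30, named for the small subunit but placed in the large one, had a log2 fold change of -0.04 ± 0.08 and did not pass. MRPS36, now described as part of the 2-oxoglutarate dehydrogenase complex rather than of the ribosome, stood at 64.3 and 74.6 against 85.8 and 79.8, groups apart but with a change of 0.25 ± 0.21 that did not pass (limma, adjusted p 0.390). Counted by place, 16 of 51 large-subunit genes and 9 of 24 small-subunit genes fell (medians -0.17 and -0.21), and 2 rose in each. MRPS27, a pentatricopeptide repeat protein of the small subunit, was second of all members by level per kb (2409). Its values of 6676 and 6442 against 6785 and 6937 gave 0.07 ± 0.07 (limma, adjusted p 0.506). MRPS22 stood at 2248 and 2181 against 1922 and 1968, apart but not past the test (-0.19 ± 0.08; limma, adjusted p 0.0911).

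**Figure D3:**
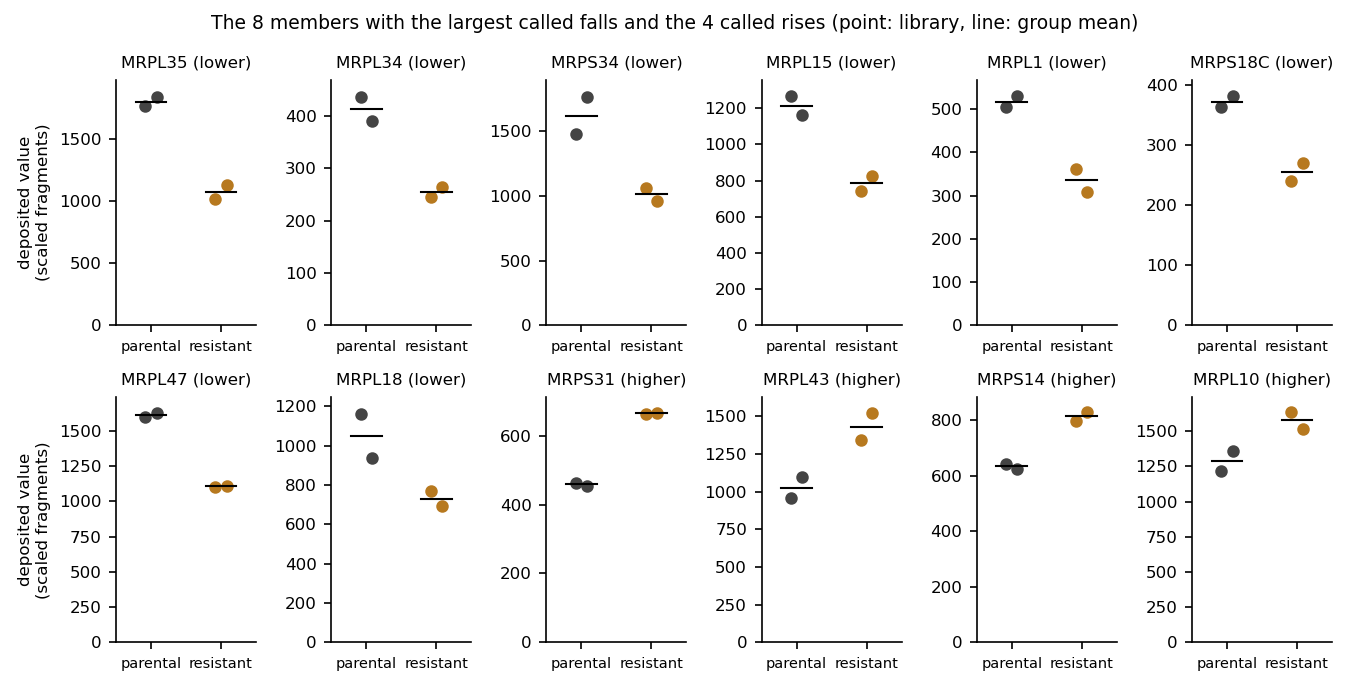
Deposited values (scaled fragments, vertical axes from 0) of the 8 members with the largest falls and of the 4 that rose, with 1 point per library and a line at the group mean, parental left and resistant right. In each of the 12 genes both resistant points lie on the same side of both parental points, for MRPL35 at 1017 and 1130 below 1766 and 1843 and for MRPS31 at 663 and 667 above 462 and 455.

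The 4 members that rose belonged to both subunits. MRPS31 (chr13:40729135-40771173), a mitochondrial addition to the head of the small subunit, stood at 462 and 455 scaled fragments in the parental and at 663 and 667 in the resistant libraries. The replicates nearly coincided, and MRPS31 rose by 0.53 ± 0.10 (limma, adjusted p 0.00439), 1.45-fold higher. It was the only one of the 4 whose call held in all 13 alternative fits. MRPL43 (chr10:100969458-100987515), a mitochondrial addition to the large subunit, stood at 957 and 1096 against 1340 and 1520. Its groups did not overlap. MRPL43 rose by 0.48 ± 0.11 (limma, adjusted p 0.00871), a call lost without resistant replicate 2 and without the trend and robust step. MRPS14 (chr1:175010789-175023425), a conserved protein of the head of the small subunit, stood at 641 and 625 against 798 and 830. MRPS14 rose by 0.36 ± 0.10 (limma, adjusted p 0.0186), a call lost without either resistant replicate and without the trend and robust step.

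MRPS31 and MRPL43 lie among genes that also rose. Within 1 Mb of the ends of MRPS31, 8 of 11 coding genes tested rose in limma, none fell (0 also at an unadjusted p under 0.05) and the median log2 fold change was 0.49. KBTBD7 (1.04), FOXO1 (0.67) and MTRF1 (0.78), the last a mitochondrial release factor, were among them, and these examples were chosen after their values were seen. Within 1 Mb of MRPL43, 16 of 26 coding genes tested rose, none fell (0 also unadjusted) and the median was 0.62. Over all coding genes tested the median was -0.04, and 16.2% of all genes tested rose. Around MRPS14 the median of 6 tested neighbours was -0.04 with 1 that rose and 1 that fell, and around MRPL10 the median of 30 was -0.06 with 5 that rose and 6 that fell. The part of the neighbourhood in these rises was not tested.

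Exons of other genes overlap those of some risers. MRPL43 shares 32.8% of its exon length with SEMA4G on the opposite strand, which had 58.6 and 67.9 scaled fragments in the parental and 298 and 344 in the resistant libraries (2.33; limma, adjusted p 9.72e-05). MRPS14 shares 13.5% with CACYBP on the opposite strand, which fell (-0.81). The library kit keeps the strand, but whether the counting used it is not given in the sources used here, so fragments of MRPL43 and SEMA4G cannot be told apart. MRPS31 has no such overlap, but it has annotated pseudogene copies, whose sequences were not compared here. MRPS31P5 had 160 and 184 against 246 and 241 and rose (0.50; limma, adjusted p 0.0292), while MRPS31P4 did not pass (0.08), and fragments may have been divided among them.

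**Figure D4:**
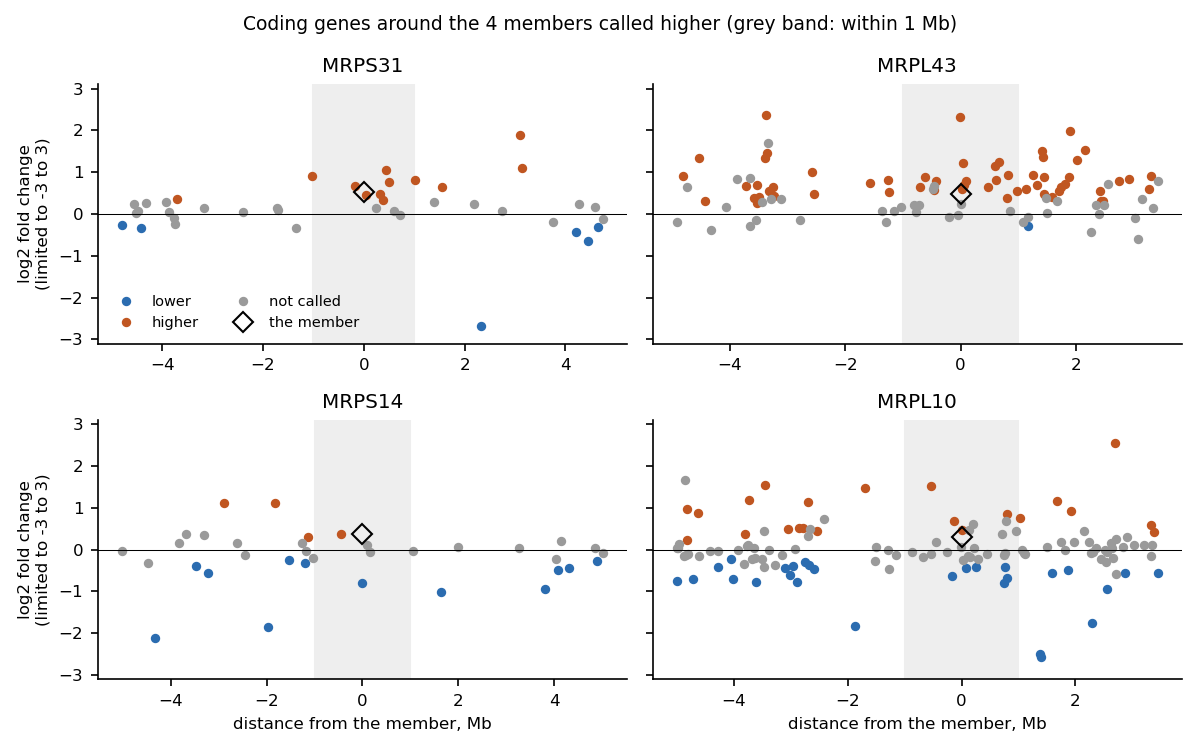
Log2 fold change (resistant minus parental) of tested coding genes against their distance from each of the 4 members that rose, in megabases, with the grey band marking 1 Mb on either side and the diamond the member. In the bands of MRPS31 and MRPL43 no gene fell and the medians within 1 Mb of the gene are 0.49 and 0.62, while the bands of MRPS14 and MRPL10 hold genes of both directions around medians of -0.04 and -0.06.

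Exon overlap was common among the members: 41 of 78 share exonic bases with another annotated gene. Of the 36 tested members without any overlap 13 fell and 2 rose, beside 20.9% lower and 16.2% higher over all genes tested. The median log2 fold change of these 36 was -0.21. By subunit this median was -0.27 for MRPL genes, with 10 that fell, and -0.04 for MRPS genes, with 3 that fell. The medians of the 2 subunits were thus farther apart in this subset, and that difference was not tested. The MRPS median here is the value of MRPS30, which is placed in the large subunit. MRPS36, now described outside the ribosome, is also counted. The subset was not sorted by place in the ribosome. Over the 76 members the log2 fold change had a Pearson r of -0.10 and a Spearman rho of -0.02 with mean log2 level, and of 0.08 and 0.12 with transcript length. Members share libraries, so these correlations are descriptions.

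MRPS12 and MRPS18B could not be tested. MRPS12, the protein of the decoding centre that sets its accuracy, was listed at 1.63 scaled fragments in parental replicate 1 and at 0 in the others. MRPS18B was at 0 throughout. Genes next to them that many cell types use were at or near 0 as well. Beside MRPS12 these include SARS2 (0.813 to 4.52), NFKBIB (0 to 4.88) and SIRT2 (0 to 2.44), and beside MRPS18B, PPP1R10, ABCF1 and GNL1 were listed at 0. Within 1 Mb, 19 of 62 coding neighbours of MRPS12 and 42 of 61 of MRPS18B were at 0 in all libraries. On chromosome 6 from 29 to 34 Mb 64.4% of 180 coding genes were at 0, against 13.8% of 19790 coding genes in the table. Other neighbours of MRPS12 had values, with 28 of the 62 tested and FBXO27 at 18.7 to 50.1. Why values in these stretches were at or near 0 was not tested. A 0 there is given as listed and is not read here as a silent gene.

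Subunits that carry other symbols are given beside the members. GADD45GIP1, a large-subunit protein, stood at 1122 and 1350 scaled fragments in the parental and at 881 and 600 in the resistant libraries. The resistant libraries differed much from each other but stayed below both parental ones, and GADD45GIP1 fell by 0.76 ± 0.19 (limma, adjusted p 0.0225), a call lost without parental replicate 2 (0.0678), by library totals (0.0703) and without the trend and robust step (0.0957). The small-subunit genes DAP3 (0.05), PTCD3 (0.07), CHCHD1 (0.06) and AURKAIP1 (-0.19) did not pass the test.

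Nuclear genes for factors that build, serve and feed the mitoribosome were taken in 4 lists. Together, 26 of 81 tested genes fell and 6 rose, with a median of -0.10, beside 20.9% lower and 16.2% higher over all genes tested. Assembly genes (25.9% lower, 14.8% higher) and translation factors (23.5% and 11.8%) lay near those shares. Without resistant replicate 1 the falls were 11, and without resistant replicate 2 the rises were 3. Without the trend and robust step 12 fell and 3 rose, none of the 12 being a translation factor. Of 27 assembly and ribosomal RNA modification genes 7 fell and 4 rose (median -0.08). Without parental replicate 2 these counts were 3 and 3, without resistant replicate 1 they were 2 and 3, and the median turned positive in both cases (0.04 and 0.02). Without resistant replicate 2 they were 5 and 1. MRM2, which methylates the large ribosomal RNA, stood at 1457 and 1402 against 833 and 868 and fell by 0.75 ± 0.09 (limma, adjusted p 0.000485). NGRN, an assembly factor, fell by 0.57, while NSUN4, a methyltransferase that joins in the assembly of the 2 subunits, rose by 0.55 and NOA1, a GTPase of small-subunit assembly, by 0.45, the last call being lost without resistant replicate 2. Of 17 translation factors 4 fell and 2 rose (median -0.08). MTRF1, which lies near MRPS31, stood at 232 and 256 against 422 and 414 and rose by 0.78 ± 0.13 (limma, adjusted p 0.00213), and its paralogue MTRF1L fell by 0.49. The elongation factor GFM1 fell by 0.40 and GFM2, which acts in ribosome recycling, rose by 0.31, a call lost without parental or resistant replicate 1, when 1 factor in place of 2 rose.

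Genes of mitochondrial transcription and RNA processing held the largest share of falls among these lists. Of 19 genes 10 fell in limma and none rose (0 also at an unadjusted p under 0.05), with a median of -0.37. The falls were 4 without resistant replicate 1 and 6 without the trend and robust step. TFAM, which packages mitochondrial DNA and starts its transcription, stood at 3130 and 3372 scaled fragments in the parental and at 2191 and 2317 in the resistant libraries and fell by 0.53 ± 0.08 (limma, adjusted p 0.00161). The groups were far apart. TRMT10C (-0.71) and ELAC2 (-0.50), which act in the processing of transfer RNA from the primary transcripts, fell as well. So did PNPT1 (-0.52), a ribonuclease of RNA decay and import. Of 18 tested mitochondrial aminoacyl-tRNA synthetase genes, which charge transfer RNA, 5 fell and none rose (0 also unadjusted, median -0.07). LARS2 (-0.54), CARS2 (-0.58), MARS2 (-0.47) and YARS2 (-0.36) were among those that fell. This share of falls, 27.8%, lay near the 20.9% over all genes and the 23.8% over coding genes tested. The falls were 2 without resistant replicate 1, and without parental or resistant replicate 2 they were 3. The MARS2 call was lost without resistant replicate 1, and that of YARS2 also without parental or resistant replicate 2.

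**Figure D5:**
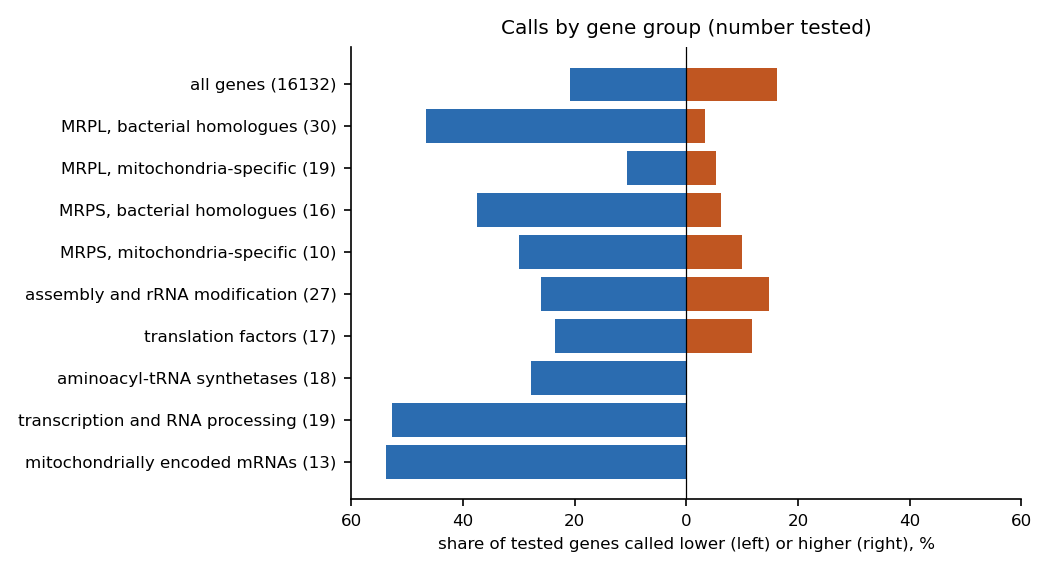
Share of tested genes (percent, horizontal axis) that fell, drawn to the left in blue, or rose, drawn to the right in orange, in all genes tested and in the groups named on the vertical axis with their numbers tested. Falls made up 20.9% of all genes tested and 14 of 30 in the MRPL group with bacterial homologues, 2 of 19 in the MRPL group without them and 10 of 19 in the transcription and RNA processing list.

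The products of mitochondrial DNA were measured in the same libraries. Over all genes tested 20.9% fell. Of the 13 protein-coding genes of mitochondrial DNA 7 fell in limma and none rose (0 also at an unadjusted p under 0.05), with a median of -0.31. The falls were 2 without the trend and robust step and also 2 with the length trend removed. Without parental replicate 2 or resistant replicate 1 they were 4, and the median was -0.18 without parental replicate 2. MT-CO3, a subunit of cytochrome c oxidase, stood at 59026 and 66051 scaled fragments in the parental and at 42700 and 43466 in the resistant libraries and fell by 0.54 ± 0.07 (limma, adjusted p 0.000985). MT-ATP6 (-0.56), MT-ND1 (-0.45) and MT-ND4L (-0.31) fell as well, while MT-CO1 (0.10) and MT-CO2 (0.07) did not pass. MT-ND4L overlaps MT-ND4, which also fell (-0.28), and MT-ATP8 overlaps MT-ATP6, so the values of these pairs may not be separate. Neither mitochondrial ribosomal RNA passed the test. The RNA of the small subunit, MT-RNR1, was at 38335 in parental replicate 1 and between 21732 and 23891 in the other libraries (-0.39 ± 0.26; limma, adjusted p 0.324). That of the large subunit, MT-RNR2, stood at 158863 and 128552 against 147926 and 153650, overlapping groups (0.08 ± 0.10; limma, adjusted p 0.590). All mitochondrially encoded genes took 3.62% and 3.77% of the parental totals and 3.51% and 3.72% of the resistant ones, so their share overlapped between groups.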

How the data were processed

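Total RNA was taken with Trizol and made into libraries with a strand-specific Agilent kit, per the labels' protocols. The authors deposited 1 table with a signal for each of 58219 Ensembl gene IDs and 4 libraries. The submitters' processing notes name Cufflinks 2.2.1, Cuffdiff, HISAT2 2.1.0, SAMtools 1.2, Trimmomatic 0.36, bcl2fastq and the build GRCh38.p10. The sources used here do not give their settings, the annotation release, the scaling or the strand setting. Most low values of the deposited signal are whole multiples of 1 step per library, read here as fragment numbers times a factor without division by gene length. The values are not all whole multiples, so the count tests that had been planned were not run and limma was used, as the plan allowed.

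Samples were grouped by the treatment in their labels. The labels call the replicates biological but tie their numbers to no shared day or culture. Genes with a value of at least 10 in at least 2 libraries and a sum of at least 15 were tested on log2(value + 1) with limma 3.58.1 (R 4.3.3), with a variance trend, robust moderation and the group alone in the model. Tests were two-sided, with Benjamini-Hochberg adjustment over 16132 genes and a threshold of 0.05. A fold change on this scale understates that of low genes. The script was tested on simulated data. Symbols, coordinates, exon overlaps and lengths (levels per 1000 bases of the principal transcript) were taken from GENCODE 29 (57881 of the IDs matched).

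The members, the lists of other genes and the tests were chosen with earlier results of these data known. Named members are the 8 with the largest falls, the risers, a set fixed for its roles and the 3 highest and 3 lowest by level. From each other list up to 4 called genes with the smallest adjusted p are named. Other members and genes were named as examples, as overlapping genes or as neighbours after their values were seen. Alternatives changed the scaling, pseudocount, filter, variance model, replicate block, length correction, libraries used and member definition.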

Additional observations from a re-analysis of the deposited data

How the results depend on the processing

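Across 13 alternative fits all 29 members called by limma kept their direction, and 7 kept their call in every fit: MRPL1, MRPL15, MRPL34, MRPL35, MRPL47, MRPS31 and MRPS34. The MRPL median minus the MRPS median lay between -0.07 and 0.04 in these fits. It was -0.22 in members that overlap no other exons, where the MRPS median is the value of MRPS30, placed in the large subunit. With 2 libraries a group, counts of calls moved with single libraries: leaving out each in turn gave 9 to 14 MRPL falls (16 with all), 0 to 2 MRPL rises, 2 to 9 MRPS falls (9), 1 to 2 MRPS rises, 11 to 24 falls (26) and 3 to 5 rises (6) among other translation genes, and medians of -0.23 to -0.15 for MRPL and -0.19 to -0.16 for MRPS.

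Without the trend and robust step there were 6 MRPL falls, 0 MRPL rises, 4 MRPS falls, 1 MRPS rise, and 12 falls and 3 rises among other translation genes. Dividing by library totals gave 12 MRPL falls (the calls of MRPL19, MRPL21, MRPL36, MRPL57 and MRPS5 were lost), 4 MRPL rises and medians of -0.085 (MRPL) and -0.091 (MRPS), while the median of all genes went from -0.02 to 0.08. TMM factors gave an MRPL median of -0.14. Removing a length trend gave 1 MRPL rise and a median of -0.22. Without members that overlap other exons there were 10 MRPL falls, 1 MRPL rise, 3 MRPS falls, 1 MRPS rise and medians of -0.27 and -0.043. With the replicate number as a block MRPS falls were 14, MRPL falls 24 and rises among other translation genes 11. The replicate differences of both groups correlated at 0.27 over genes, but with 2 pairs and no label that ties the numbers they were not taken as pairs. The cause of these shifts was not tested.

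Of the 47 uncalled members 19 turned sign in at least 1 fit, 5 of them by library totals alone, which moved the median of all genes upwards. MRPL51, an example, ran from -0.03 to 0.11. Among the members that the naming rule chose, those that turned were MRPL45 (0.027 by library totals, -0.40 to 0.27 without a library), MRPL44 (0.032 by totals, -0.16 to 0.032 without a library), MRPS18A (0.083 by totals, 0.028 by TMM, -0.057 to 0.034 without a library) and MRPS30 (0.053 by totals, -0.11 to 0.020 without a library). The edgeR and DESeq2 fits were not run, because the deposited values are not whole. MRPL45 and MRPS36 had low values, and which part depth has in their spread was not tested.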
